A study of Ericerus pela with 2 samples.

Results

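The unigenes described here encode the enzymes of glycolysis and gluconeogenesis and the glycerol-phosphate shuttle in males of the Chinese white wax scale, Ericerus pela, at the pupal and the prepupal stage. A unigene is an assembled transcript fragment. Unigenes were taken by 14 keywords searched in the name of the best protein database match, among them hexokinase, enolase, aldolase, lactate dehydrogenase, phosphoenolpyruvate carboxykinase, glycerol-3-phosphate dehydrogenase and the stem glucose-6-phosphat. The search gave 42 of the 120710 unigenes with reads in either library, on 35 different protein accessions. Of these, 26 belonged to 11 enzymes of the named pathways, and 16 belonged to 7 other enzymes whose names share a keyword. The keywords for fructose-1,6-bisphosphatase, triosephosphate isomerase, glyceraldehyde-3-phosphate and pyruvate kinase, and the word fructose-bisphosphate, matched no unigene, and these steps are not analysed here under those names.

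The study holds 1 library from male pupae and 1 from male prepupae. Both were made from wild type insects, labelled as whole body and with an age of 90 that has no unit. The design note speaks of retinal mRNA instead, and states that nothing was replicated. The series asks how developmental programmes differ in this sexually dimorphic insect, and the 2 libraries set a later against an earlier stage of male metamorphosis.

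Glycolysis splits glucose into pyruvate and yields ATP on the way. Gluconeogenesis runs most of the same steps backwards and gets past the last, one-way step of glycolysis through phosphoenolpyruvate carboxykinase. The glycerol-phosphate shuttle passes electrons from cytosolic NADH to the mitochondrial respiratory chain through glycerol 3-phosphate; in the flight muscle of flies it takes the place of lactate formation. The pentose phosphate pathway branches off at glucose 6-phosphate and supplies NADPH and ribose.

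Each stage has 1 library, so no p-value is given and differences are described by their size. Each fold below is the ratio of reads in pupae to reads in prepupae after division by the library totals, 1840877 reads in pupae and 2182108 in prepupae. Its exact (Clopper-Pearson) 95% interval covers counting error only and not the spread between animals. A unigene is called higher or lower where log2 of (RPKM + 1) in pupae over (RPKM + 1) in prepupae reached a 2-fold difference, at a mean RPKM of at least 1. RPKM, the deposited level, divides the reads by the length of the unigene and by the depth of the library. The median log2 ratio over all 113976 unigenes that passed this filter was -0.49, a shift of 0.712-fold towards lower values in pupae, and values relative to it are given where they end or add a call on an enzyme or unigene named below. In RNA from many cells, fewer cells of a type and less RNA per cell cannot be told apart.

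The enzymes went in opposite directions. Phosphoenolpyruvate carboxykinase and both kinds of glycerol-3-phosphate dehydrogenase were higher in pupae, by 31.8-fold, 11.5-fold and 3.68-fold in summed reads. No enzyme of the glycolytic steps themselves was called higher under the keywords, and glucose-6-phosphate isomerase, phosphoglycerate kinase, phosphoglycerate mutase and enolase were lower by more than 2-fold. The 2 pentose phosphate enzymes among the members were lower by more than 5-fold. Together the carboxykinase and the glycerol-3-phosphate dehydrogenases held 74.6% of the members' reads in pupae (73.4 to 75.8) and 9.54% in prepupae (8.63 to 10.5).

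**Figure D1:**
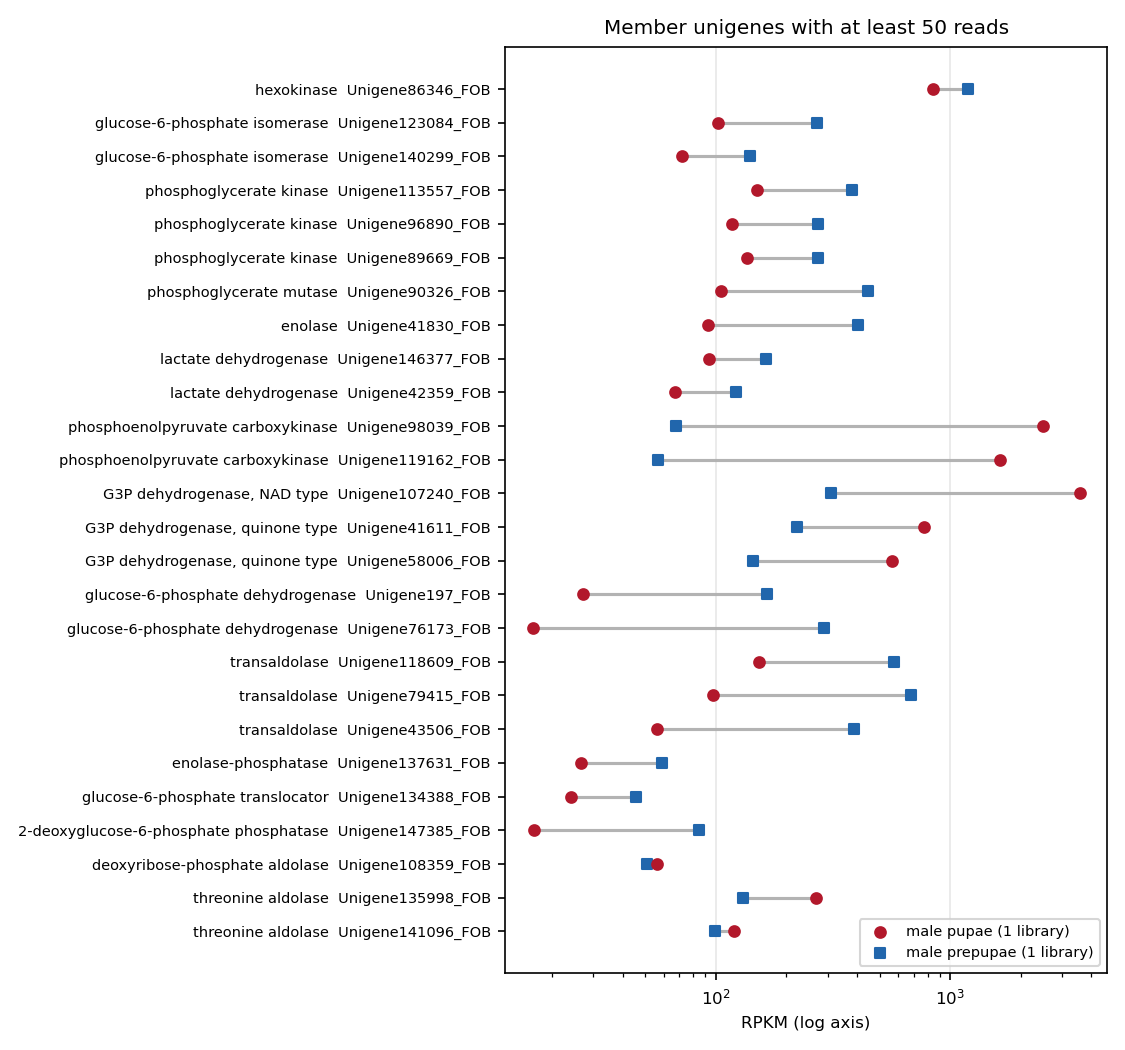
RPKM (log axis) of the 26 member unigenes with at least 50 reads over both libraries; the red circle is the pupal and the blue square the prepupal library, with no replicates. The 2 carboxykinase unigenes and the 3 glycerol-3-phosphate dehydrogenase unigenes lie far to the right in pupae, while every unigene from hexokinase to lactate dehydrogenase lies to the left of its prepupal value.

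Hexokinase, which phosphorylates glucose as it enters the cell, had the most reads of the glycolytic enzymes under the keywords. Nearly all of them were on Unigene86346_FOB, named after Hexokinase A, at a level of 843 RPKM (326 reads) in pupae and 1192 RPKM (546 reads) in prepupae. Its level per length ranked 249 among all unigenes in pupae and 11 in prepupae. The fold was 0.708 (0.615 to 0.813), close to the overall shift of 0.712, and is not a call. Another unigene with the same accession, Unigene155944_FOB, had 3 reads in pupae and 12 in prepupae over 1006 bases, so unigenes of 1 name were not at 1 level. It was called lower, 3.37-fold, on these few reads, with an interval from 0.911 to 18.6. That call ends relative to the overall median, at a log2 ratio of -0.81.

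Glucose-6-phosphate isomerase, which turns glucose 6-phosphate into fructose 6-phosphate, had 111 reads in pupae and 303 in prepupae. The sum was 2.30-fold lower in pupae (1.85 to 2.89), and 0.610-fold relative to the overall median. Its unigenes were Unigene123084_FOB, with 102 RPKM in pupae and 271 RPKM in prepupae, and Unigene140299_FOB, with 72.0 RPKM in pupae and 140.2 RPKM in prepupae. The first was called lower, though not relative to the overall median (log2 ratio -0.91), and the second stopped short of 2-fold at a log2 ratio of -0.95, with overlapping intervals.

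Phosphoglycerate kinase, the first step of glycolysis to make ATP, had 176 reads in pupae and 486 in prepupae and was 2.33-fold lower (1.96 to 2.78). Its 3 well-covered unigenes stood close together. Unigene113557_FOB had 150 RPKM in pupae and 382 RPKM in prepupae. Unigene96890_FOB had 117 RPKM in pupae and 273 RPKM in prepupae. Unigene89669_FOB had 136 RPKM in pupae and 273 RPKM in prepupae, a log2 ratio of -0.99 that lies just outside the rule. Relative to the overall median the sum was 0.603-fold, so neither this enzyme nor the isomerase would be called on that scale, nor would Unigene113557_FOB (log2 ratio -0.86) or Unigene96890_FOB (-0.73).

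The next steps had the largest fold decreases in summed reads among the glycolytic enzymes found by the keywords. Phosphoglycerate mutase moves the phosphate group along the three-carbon acid, and enolase removes water to form phosphoenolpyruvate. The mutase Unigene90326_FOB had 106 RPKM (42 reads) in pupae and 448 RPKM (211 reads) in prepupae, and was 4.24-fold lower (3.03 to 6.05). The only enolase unigene, Unigene41830_FOB, had 92.3 RPKM (26 reads) in pupae and 404 RPKM (135 reads) in prepupae, and was 4.38-fold lower (2.86 to 6.95). Both stayed past 2-fold relative to the overall median, at 0.328-fold for the summed mutase reads and 0.321-fold for enolase.

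Over the 7 glycolytic enzymes the keywords found 17 unigenes, which summed to 689 reads in pupae and 1702 in prepupae, 2.08-fold lower (1.91 to 2.28). The 12 that passed the filter had a median log2 ratio of -1.11, but -0.62 relative to the overall median, short of 2-fold. Phosphofructokinase, the step that commits sugar to glycolysis, had 4 reads in pupae and 5 in prepupae on 3 unigenes of that name. Fructose-bisphosphate aldolase, which splits the six-carbon sugar, had 1 read in each library. Neither sum allows a statement about direction at this depth.

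Lactate dehydrogenase, which converts pyruvate to lactate and regenerates NAD, had 105 reads in pupae and 221 in prepupae, a fold of 0.563 (0.442 to 0.714) that missed the rule. Unigene146377_FOB had 93.4 RPKM in pupae and 164 RPKM in prepupae. Unigene42359_FOB had 67.0 RPKM in pupae and 122 RPKM in prepupae. Neither was called, and relative to the overall median the sum was 0.791-fold.

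**Figure D2:**
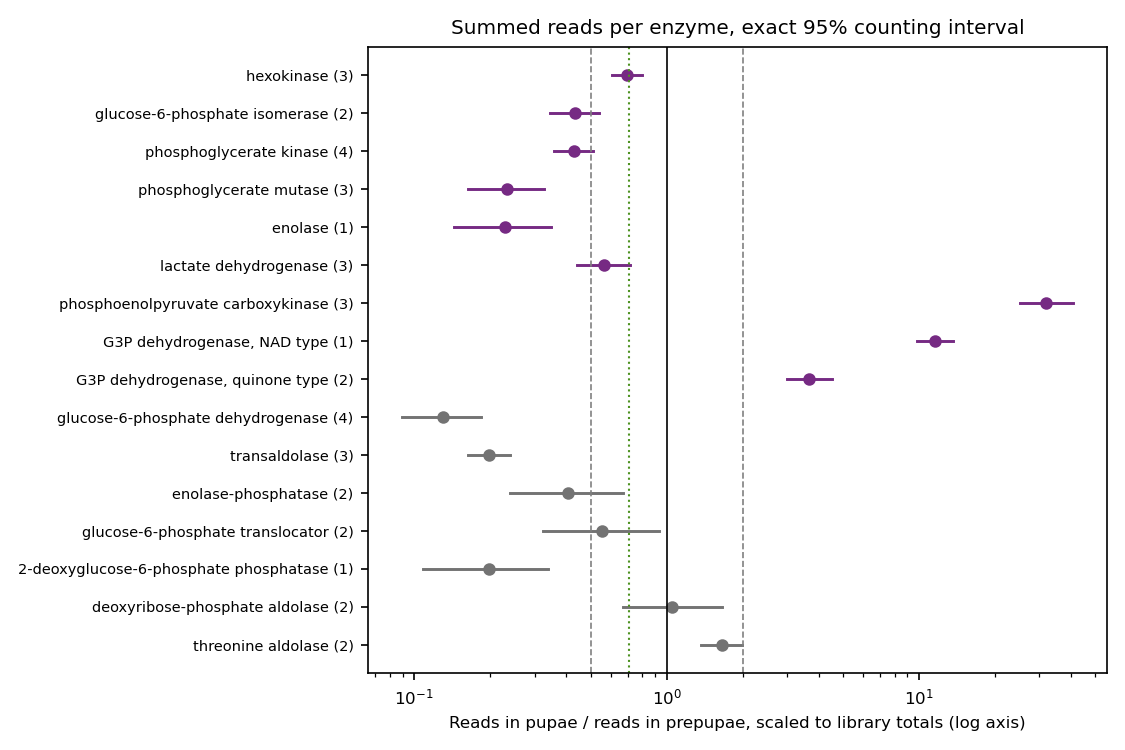
Reads in pupae over reads in prepupae for each enzyme, summed over its unigenes (their number in brackets) and scaled to the library totals, on a log axis with exact 95% counting intervals; purple marks pathway enzymes, grey the other enzymes, dashed lines a 2-fold difference and the green dotted line the overall median ratio. The carboxykinase (31.8) and the NAD-type dehydrogenase (11.5) stand far above 1, and glucose-6-phosphate dehydrogenase, 7.71-fold lower, is at the other end. The 2 enzymes with under 10 reads in total are not drawn.

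Phosphoenolpyruvate carboxykinase makes phosphoenolpyruvate from oxaloacetate, for the synthesis of glucose or of glycerol 3-phosphate. Its reads numbered 1905 in pupae and 71 in prepupae, a 31.8-fold difference (25.1 to 40.9) and the largest among the enzymes of the list. Unigene98039_FOB, with a mealybug match, had 2485 RPKM (1052 reads) in pupae and 67.7 RPKM (34 reads) in prepupae. Unigene119162_FOB, with a carpenter bee match, had 1637 RPKM (853 reads) in pupae and 56.7 RPKM (35 reads) in prepupae. By RPKM they ranked 29 and 72 among all pupal unigenes, and 12107 and 15374 among the prepupal ones. The 2 folds, 36.7 (26.1 to 53.2) and 28.9 (20.6 to 41.8), overlapped within counting error. A further unigene whose deposited name misspells the enzyme, and which the keyword therefore missed, Unigene40924_FOB, had 301 reads in pupae and 9 in prepupae, 39.6-fold higher (20.6 to 87.5). The remaining member, matched to the amoeba Naegleria gruberi, had 0 reads in pupae and 2 in prepupae, both under the floor of 3 counts.

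Pyruvate carboxylase supplies the oxaloacetate that the carboxykinase uses when pyruvate is the starting material, and it moved the opposite way. It is not a member, and came from a list of neighbouring steps. Its 2 unigenes had 28 reads in pupae and 284 in prepupae, 8.56-fold lower (5.79 to 13.1). Unigene46982_FOB had 50.9 RPKM in pupae and 510 RPKM in prepupae, and Unigene48384_FOB had 43.6 RPKM in pupae and 300 RPKM in prepupae. A unigene looked up later and named only as a pyruvate, acetyl-CoA or propionyl-CoA carboxylase, Unigene128454_FOB, had 55 reads in pupae and 359 in prepupae, 5.51-fold lower (4.14 to 7.45). Per length, the carboxykinase stood at 18.4 times pyruvate carboxylase in pupae and at 0.0677 times in prepupae, a 272-fold difference between the ratios (169 to 443). Of the 1189 bases pooled for the carboxykinase, 676 are of the amoeba-matched member with 0 reads in pupae and 2 in prepupae. This lowers the ratio in both libraries. Aspartate aminotransferase, another route to oxaloacetate, had 53 reads in pupae and 344 in prepupae. It was called lower on 5 of 5 unigenes, beside 39.4% of all unigenes. The call on Unigene51855_FOB, with 7 reads in pupae and 23 in prepupae, ends relative to the overall median, at a log2 ratio of -0.94. Malic enzyme, which interconverts malate and pyruvate, had 37 reads in pupae and 169 in prepupae, 3.85-fold lower (2.69 to 5.66).

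The glycerol-phosphate shuttle has 2 dehydrogenases, which the deposited Gene Ontology terms tell apart. The NAD type is cytosolic and reduces dihydroxyacetone phosphate to glycerol 3-phosphate. The quinone type sits in the inner mitochondrial membrane and oxidises glycerol 3-phosphate again. The NAD-type Unigene107240_FOB had 3565 RPKM (1634 reads) in pupae and 309 RPKM (168 reads) in prepupae, and ranked 12 among all pupal unigenes against 512 in prepupae. It was the most abundant member per length in pupae, and 11.5-fold higher than in prepupae (9.83 to 13.6).

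The quinone type was also higher, by less. Unigene41611_FOB had 774 RPKM (218 reads) in pupae and 222 RPKM (74 reads) in prepupae, 3.49-fold higher (2.67 to 4.61). Unigene58006_FOB had 565 RPKM (182 reads) in pupae and 144 RPKM (55 reads) in prepupae, 3.92-fold higher (2.89 to 5.40). A pair of unigenes with the same quinone-acceptor term but the name lethal (2) k05713, Unigene127177_FOB and Unigene114973_FOB, gave 3.92 (3.06 to 5.06) and 3.07 (2.39 to 3.99). All 4 intervals share values, so these fragments gave like folds within counting error. Per length, the NAD type stood at 5.38 times the quinone type in pupae and at 1.72 times in prepupae, a 3.14-fold difference (2.41 to 4.07). Set against lactate dehydrogenase, the other route to NAD, the NAD type stood at 51.5 times in pupae and at 2.52 times in prepupae, a 20.5-fold difference (15.3 to 27.4). The pooled lactate dehydrogenase length includes 170 bases of a member with 0 reads in pupae and 1 in prepupae, which raises both ratios.

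Glycerol kinase, which makes glycerol 3-phosphate from free glycerol, was split among its unigenes. Its 8 unigenes, again outside the members, summed to 1086 reads in pupae and 368 in prepupae, 3.50-fold higher (3.11 to 3.95). Of the 8, 2 were called higher and 5 lower, beside 23% and 39.4% of all unigenes. Relative to the overall median, 2 of those 5 stopped short of 2-fold, Unigene154207_FOB and, at a log2 ratio of -0.97, Unigene54962_FOB. Unigene114115_FOB had 1374 RPKM (673 reads) in pupae and 109 RPKM (63 reads) in prepupae, 12.7-fold higher (9.77 to 16.7). Unigene101487_FOB had 766 RPKM (334 reads) in pupae and 54.1 RPKM (28 reads) in prepupae, 14.1-fold higher (9.61 to 21.6). Unigene154207_FOB shares its accession with Unigene114115_FOB but had 27.8 RPKM (41 reads) in pupae and 69.1 RPKM (121 reads) in prepupae, 2.49-fold lower (1.73 to 3.64), or -0.79 in log2 relative to the overall median. Unigenes of 1 match therefore went both ways, and whether they are separate gene copies was not tested.

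**Figure D3:**
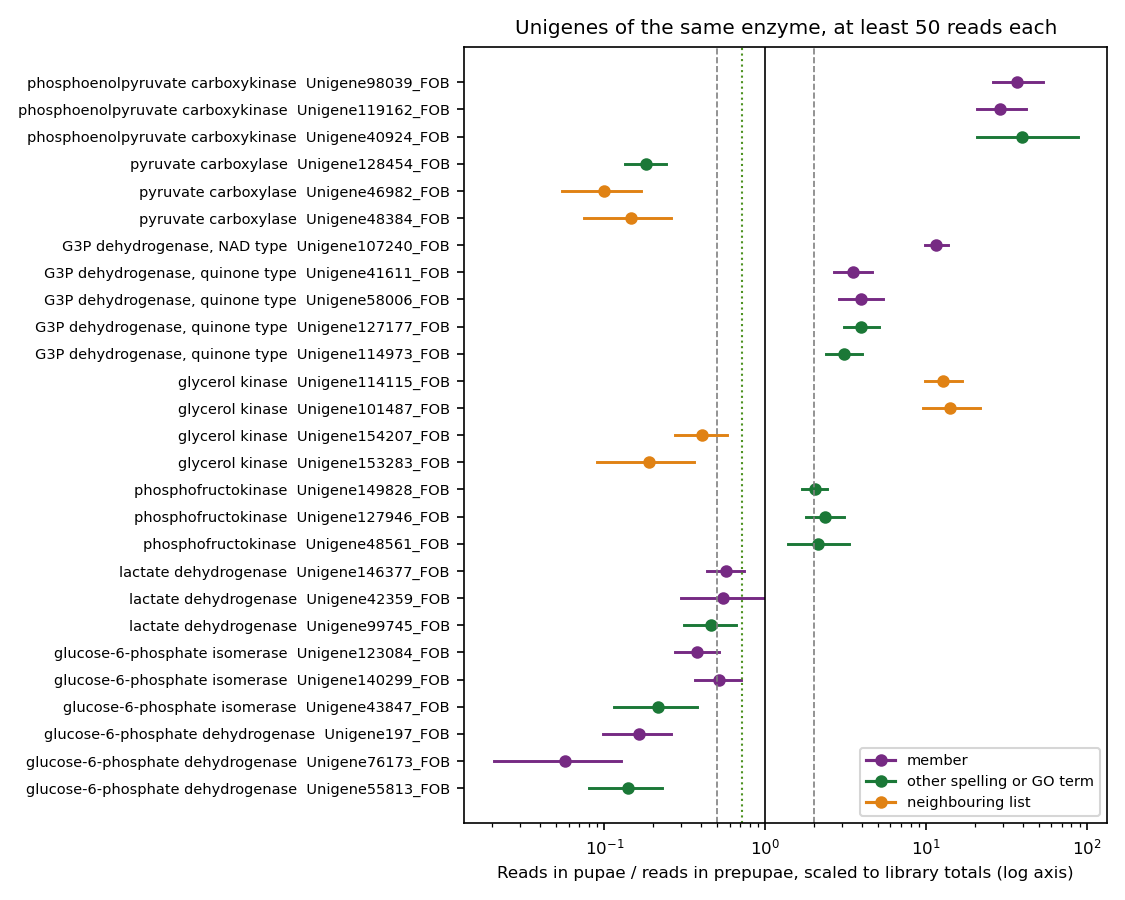
Reads in pupae over reads in prepupae, scaled to library totals (log axis, exact 95% counting intervals), for single unigenes of 9 enzymes with at least 50 reads; purple marks members, green unigenes found by another spelling or a Gene Ontology term, orange the neighbouring list. The solid line is 1, the dashed lines a 2-fold difference, the dotted line the overall median ratio. The 3 carboxykinase unigenes lie between 28.9 and 39.6 and the pyruvate carboxylases below 1, while glycerol kinase has unigenes on both sides. The pair with the phosphofructokinase activity term but the process fructose metabolism, both lower in pupae, is not drawn.

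All 7 member unigenes of the pentose phosphate pathway were called lower, beside 39.4% of all unigenes. On Unigene103503_FOB and Unigene50320_FOB these calls rest on 33 and 28 reads over both libraries. Glucose-6-phosphate dehydrogenase, the entry step of the pathway and a source of NADPH, had the largest fold decrease in summed reads among the members' enzymes. It had 36 reads in pupae and 329 in prepupae, 7.71-fold lower (5.46 to 11.2). Unigene76173_FOB had 16.5 RPKM (6 reads) in pupae and 291 RPKM (125 reads) in prepupae, 17.6-fold lower (7.85 to 48.8). Unigene197_FOB had 27.1 RPKM (21 reads) in pupae and 165 RPKM (152 reads) in prepupae, 6.11-fold lower (3.85 to 10.2).

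Transaldolase, which rearranges sugars in the later, reversible branch, had 131 reads in pupae and 784 in prepupae, 5.05-fold lower (4.19 to 6.12). Unigene79415_FOB had 97.3 RPKM (36 reads) in pupae and 682 RPKM (299 reads) in prepupae, and ranked 5808 in pupae against 49 in prepupae. Unigene118609_FOB had 153 RPKM (79 reads) in pupae and 577 RPKM (354 reads) in prepupae. Unigene43506_FOB had 56.1 RPKM (16 reads) in pupae and 387 RPKM (131 reads) in prepupae. Their folds did not share a common value: Unigene118609_FOB was 3.78-fold lower (2.95 to 4.89), against 7.01-fold (4.95 to 10.2) for Unigene79415_FOB. In the neighbouring list, 6-phosphogluconolactonase, which opens the lactone made by glucose-6-phosphate dehydrogenase, was 2.43-fold lower (1.61 to 3.75), with 32 reads in pupae and 92 in prepupae. Its unigenes, Unigene115501_FOB and Unigene84766_FOB, had log2 ratios of -0.74 and -0.79 relative to the overall median, short of 2-fold. Transketolase, with 7 reads in pupae and 4 in prepupae, and 6-phosphogluconate dehydrogenase, with 0 reads in pupae and 1 in prepupae, were too shallow to place.

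The other enzymes caught by the keywords work outside these pathways. The 2-deoxyglucose-6-phosphate phosphatase Unigene147385_FOB had 16.7 RPKM in pupae and 84.6 RPKM in prepupae, 5.06-fold lower (2.96 to 9.21). Enolase-phosphatase, an enzyme of methionine salvage, had 22 reads in pupae and 64 in prepupae, 2.45-fold lower (1.49 to 4.18), with Unigene137631_FOB at 26.5 RPKM in pupae and 58.9 RPKM in prepupae. Relative to the overall median it stopped short of 2-fold, at a log2 ratio of -0.63 on that unigene. The glucose-6-phosphate translocator was not called on either unigene, and Unigene134388_FOB had 24.0 RPKM in pupae and 45.6 RPKM in prepupae. Deoxyribose-phosphate aldolase, which breaks down deoxyribose phosphate, was not called either, with 40 reads in pupae and 45 in prepupae and, on Unigene108359_FOB, 56.0 RPKM in pupae and 50.9 RPKM in prepupae.

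Threonine aldolase, which cleaves threonine to glycine, was the only one of these enzymes with a unigene called higher. Unigene135998_FOB had 267 RPKM (184 reads) in pupae and 131 RPKM (107 reads) in prepupae, just inside the rule at 2.04-fold (1.60 to 2.61). Unigene141096_FOB had 119 RPKM (93 reads) in pupae and 99.4 RPKM (92 reads) in prepupae and was not called. The enzyme's summed fold was 1.65 (1.37 to 1.99), and 2.32 relative to the overall median.

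Several steps that the keywords left thin had unigenes under other names; these were looked up after the values had been seen. For phosphofructokinase, 5 unigenes named only by a mosquito gene model carry the terms phosphofructokinase activity and glucose catabolic process. They had 576 reads in pupae and 319 in prepupae, 2.14-fold higher (1.86 to 2.46). The best covered, Unigene149828_FOB, had 310.1 RPKM in pupae and 153 RPKM in prepupae, and Unigene127946_FOB had 288 RPKM in pupae and 123 RPKM in prepupae. With them the enzyme's sum was 2.12-fold higher in pupae (1.85 to 2.44), so the absence of a higher call within glycolysis holds for the keyword members and not for every unigene of the pathway. A different pair with the same activity term but the process fructose metabolism had 55 reads in pupae and 161 in prepupae, 2.47-fold lower (1.81 to 3.42). Relative to the overall median its log2 ratios were -0.85 on Unigene107835_FOB and -0.68 on Unigene37470_FOB, short of 2-fold. The 6-phosphofructo-2-kinase unigenes, whose enzyme makes the activator of phosphofructokinase, summed to 149 reads in pupae and 310 in prepupae (0.570-fold, 0.465 to 0.695).

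The same search added unigenes to other members without turning any direction. Lactate dehydrogenase came to 147 reads in pupae and 331 in prepupae (0.526-fold, 0.430 to 0.641). Its added Unigene99745_FOB, with 42 reads in pupae and 109 in prepupae, was called lower, 2.19-fold (1.52 to 3.20), but stopped short of 2-fold relative to the overall median, at a log2 ratio of -0.63. Glucose-6-phosphate isomerase came to 126 reads in pupae and 386 in prepupae, 2.58-fold lower (2.11 to 3.19), though short of 2-fold relative to the overall median. Glucose-6-phosphate dehydrogenase, with the unigene named Zwischenferment, came to 54 reads in pupae and 482 in prepupae, 7.53-fold lower (5.68 to 10.2). At the hexokinase step, 2 unigenes named glucokinase had 3 reads in pupae and 29 in prepupae in all, 8.16-fold lower (2.53 to 41.8). Most were on the ADP-dependent Unigene113107_FOB, called lower with 3 reads in pupae and 25 in prepupae. Unigene154758_FOB also met the rule, but had 0 reads in pupae and 4 in prepupae, with an interval up to 1.80-fold. A glyceraldehyde 3-phosphate dehydrogenase unigene matched to the worm Brugia malayi had 0 reads in pupae and 5 in prepupae.

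Counted as a list, 36 of the 42 members passed the filter, and 6 fell below it. Of the 36, 6 were called higher (16.7%), beside 23% of all unigenes. Another 17 were called lower (47.2%), beside 39.4% of all unigenes. That count includes calls on few reads, down to a lactate dehydrogenase unigene with 0 reads in pupae and 1 in prepupae. The median log2 ratio of the 36 was -0.97, beside -0.49 for all. Both shares are near the background, and the list as a whole says less than its enzymes. Of the 26 members that reached 50 reads, 6 (23.1%) were called higher and 12 (46.2%) lower, beside 19.8% and 36.2% of all unigenes of that depth. The 15 of these in pathway enzymes divided evenly, with 5 higher, 5 lower and 5 neither. All the members' reads together were 0.287% of the library in pupae (0.279 to 0.295) and 0.177% in prepupae (0.171 to 0.182), a 1.62-fold difference (1.56 to 1.69). Without the carboxykinase and the NAD-type dehydrogenase the same sum was 0.570-fold (0.538 to 0.603), so those 2 enzymes set its direction.

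**Figure D4:**
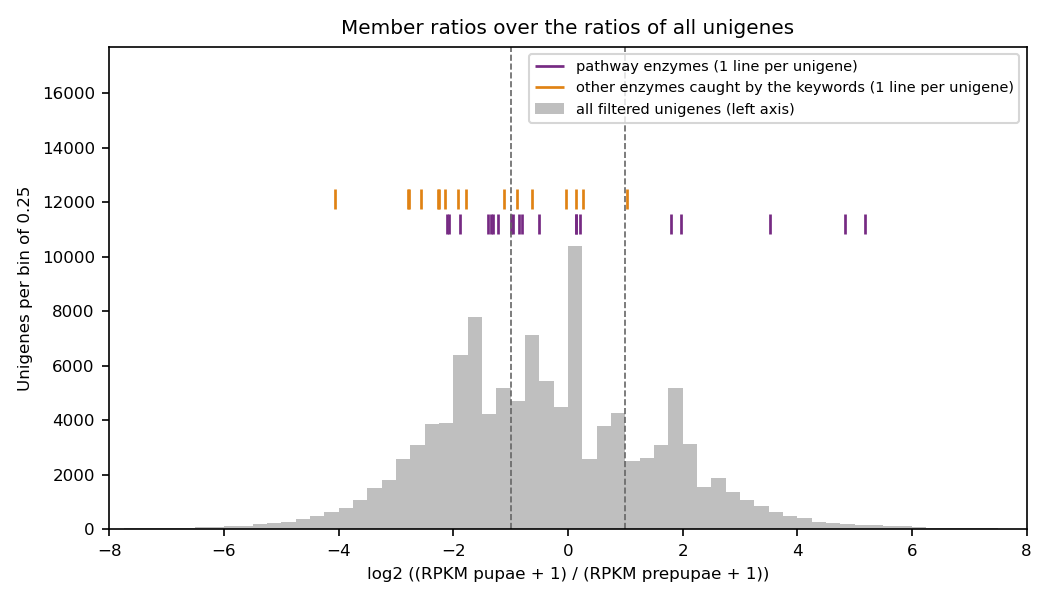
Histogram of log2 of (RPKM + 1) in pupae over (RPKM + 1) in prepupae for the 113976 filtered unigenes, in grey (left axis, unigenes per bin), with 1 tick per filtered member above it, at a height that carries no value; purple ticks are pathway enzymes and orange ticks the other enzymes. Dashed lines mark a 2-fold difference. The 5 purple ticks on the far right are the 2 carboxykinase and 3 glycerol-3-phosphate dehydrogenase unigenes; the orange ticks lie mostly on the left.

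Most members were short fragments, with a median of 258.5 bases against 254 for all unigenes. The 26 with at least 50 reads had a median of 92.5% of their length covered in pupae and 95.8% in prepupae. Where an enzyme had 2 or more such unigenes, as 8 did, they lay on the same side of a fold of 1 in all 8, and they had the same call in 5. The 10 members with under 10 reads held 5 reads in pupae and 13 in prepupae in all, and 7 of them had 0 reads in pupae. No member had 0 reads in prepupae. The deposited process term glucose catabolism was carried by 19 of the 42.

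The list of neighbouring steps and regulators had 59 unigenes, of which 15 proved to be other proteins. Of the other 44, 41 passed the filter; 2 were called higher, the glycerol kinases above, and 24 lower, beside 23% and 39.4% of all unigenes. Their median log2 ratio was -1.29, beside -0.49 for all. Phosphoglucomutase, which links glycogen to glucose 6-phosphate, had 320 reads in pupae and 412 in prepupae (0.921-fold, 0.793 to 1.07). Its unigenes divided, with 3 lower and 3 neither: Unigene141582_FOB had 255 RPKM in pupae and 234 RPKM in prepupae, and Unigene62855_FOB had 30.0 RPKM in pupae and 154 RPKM in prepupae. Hypoxia-inducible factor 1 alpha, a regulator of glycolytic genes in mammals, had 228 reads in pupae and 216 in prepupae (1.25-fold, 1.03 to 1.51) and no called unigene. Relative to the overall median Unigene97362_FOB, with 60 reads in pupae and 38 in prepupae, would be called higher, at a log2 ratio of 1.39. AMP-activated protein kinase, a sensor of low energy, had 155 reads in pupae and 318 in prepupae (0.578-fold, 0.474 to 0.702), with 1 of 6 unigenes lower; that call, on Unigene136504_FOB, ends relative to the overall median, at a log2 ratio of -0.79. Malate dehydrogenase had 6 reads in pupae and 27 in prepupae.

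Markers of muscle and fat body, tissues that use these enzymes, were counted in the same way, beside 23% of all unigenes called higher and 39.4% called lower. Of 107 muscle unigenes (myosins, troponins, tropomyosins, titin and the like), 106 passed the filter, and 42 were called higher and 8 lower, with 18530 reads in pupae and 10196 in prepupae, 2.15-fold higher (2.10 to 2.21). Among them 2 had 0 reads in pupae and 5 in prepupae. The fat body unigenes were searched by the names vitellogenin, hexamerin, storage protein and apolipophorin. All 9 had reads in both libraries, 520 in pupae and 1181 in prepupae (0.522-fold, 0.470 to 0.579). Of these, 4 were called lower, a share near that of all unigenes, and 0 higher. Unigenes matched to protists numbered 312, with 4170 reads in pupae and 7909 in prepupae, and 2 of them are members. Of these 312, 217 passed the filter, with 15 called higher and 153 lower. Among the 312, 179 had 0 reads in pupae and 14 had 0 reads in prepupae. The part of these lists in the members' differences was not tested.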

How the data were processed

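RNA from male pupae and male prepupae was sequenced, 1 library each; libraries followed standard Illumina procedures, per the labels' protocols. Per the file headers, the deposited tables give per unigene the count of uniquely assigned reads, the length in bases, the percent of that length covered and the RPKM. Recomputing the deposited RPKM from counts, length and library total gave the same values. No assembler, aligner or database version is stated in the labels or headers, and near-identical copies may have lost reads.

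Both tables were merged by identifier, with 0 reads where a table lists none. Members and lists were chosen with earlier results of these data known. Named are every enzyme of the members, as a sum over its unigenes, and every member with at least 50 reads. Of the neighbouring unigenes only some are named. Others of that depth appear only within the sum of their enzyme, or not at all where they proved to be other proteins. Pooled levels divide summed reads by summed length. A count of 0 was read against a floor of 3 counts. TMM factors (edgeR 4.0.16 in R 4.3.3) were 0.873 in pupae and 1.15 in prepupae. Calculations used Python 3.11.15, pandas 2.3.3, numpy 2.4.6 and scipy 1.17.1, and were tested on simulated counts. The intervals treat each read as independent, but PCR copies are not independent molecules. The intervals therefore cover counting error at most, and can be too narrow for it. The alternatives were other pseudocounts, filters, scalings, lengths and memberships. No sequences are shown.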

Additional observations from a re-analysis of the deposited data

How the results depend on the processing

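Another scaling, filter or pseudocount used here could add or end a call of a member or an enzyme. None could reverse one, because filters only drop unigenes, pseudocounts keep the sign and the scalings shift ratios too little. The unchanged direction of the calls is therefore no check. Members called higher stayed at 6 and those lower ranged from 12 to 23 under the pseudocounts, filters on RPKM or reads, TMM and centring on the overall median. Among unigenes of at least 500 bases the members' counts were 0 higher and 2 lower, and without the other enzymes 7 were lower. Over all unigenes the calls higher and lower were 14515 and 25897 with a pseudocount of 5, 14049 and 25063 at a mean RPKM of at least 5, 4485 and 8217 at 50 reads or more, and 2383 and 5649 at 500 bases or more. They were 26264 and 44893 as reported, against 32723 and 34227 with TMM and 34176 and 35653 after centring. The alternatives for the neighbouring list were run on all 59 unigenes, including the 15 other proteins, where 4 were higher and 29 lower. In that full list, 7 were higher with TMM, 8 higher and 18 lower after centring, and 16 lower at 50 reads or more. At 500 bases or more 0 were higher and 4 lower. The reported counts, 2 higher and 24 lower, leave out the other proteins and were not put through these alternatives. The members' summed fold of 1.62 became 2.13 with TMM, 2.28 relative to the overall median, 2.45 without the other enzymes and 1.17 without its most-read unigene. It turned below 1, to 0.570, without the carboxykinase and the NAD-type dehydrogenase, a choice made after seeing the data, as were the other spellings and the removal of other proteins from the neighbouring list. Enzymes at least 2-fold lower numbered 8, and 5 with TMM, 5 relative to the overall median and 5 without each enzyme's most-read unigene, which leaves out enzymes of 1 unigene. Enzymes at least 2-fold higher numbered 3, and 4 with TMM or relative to the overall median, where threonine aldolase joined them. No paired analysis was possible because each stage has 1 library. Depth limits the 10 members with under 10 reads and every sum over fewer than 50 reads.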
